A study of Mus musculus with 10 samples.

Results

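Expression of 38 genes that build, carry or trim heparan sulfate was followed in cultured and sorted mouse spermatogonia. The genes were taken as a list of core proteins, syndecan binding proteins, exostosin family genes, sulfotransferases, sulfatases and linker enzymes, and each was read from its brightest non-control probe over all 10 arrays. All 38 of 38 listed genes were on the array, with 54 of its 55681 non-control probes. RNA was labelled with Cy3 and hybridised to Agilent whole mouse genome arrays, 1 array per sample.

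The cultured samples were wild-type germline stem (GS) cells, spermatogonia that self-renew in culture when FGF2 and GDNF are supplied. They had been deprived of FGF2 and GDNF for 3 days and were then kept for 24 hr with 100 ng/mL FGF5 (2 samples, "FGF5") or without it (2 samples, "no FGF5"). The labels name their strain as C57BL/6, whereas the study's methods describe a cross of C57BL/6 and ICR. The sorted samples were GFRα1+ cells, taken by their GFP from testes of C57BL/6 mice of 2.5 months that all carried the GFRα1-EGFP knock-in, and were either WT (3 samples) or Fgf5-/- (3 samples), with the go-moja allele of Fgf5. Whether a sorted sample pooled several mice is not stated. The study asked what FGF5 does to spermatogonia in culture and what its loss does in the testis.

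Heparan sulfate is a long, sulfated sugar chain attached to a protein. Xylosyltransferases and other linker enzymes place the first sugars on the core protein, the exostosins extend the chain, and N-deacetylase N-sulfotransferases, an epimerase and O-sulfotransferases then modify it. The pattern of sulfate sets which FGFs and FGF receptors the chain can hold, and it can be edited outside the cell by sulfatases and heparanase. In the testis, Sdc4 protein and the syndecan binding protein Sdcbp were the members that the study stained in spermatogonia.

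Of the 38 members, 28 have a promoter in the RefSeq table of GRCm38.p6, with 33 annotated starts among them. Windows are shown for some of the members whose levels did not overlap between cultured and sorted cells, chosen and not ranked. They are a syndecan, a glypican and the pair of 6-O-sulfotransferases that went in opposite directions. Each window holds the 150 bases before the annotated start, 5′ to 3′ on the strand of the gene. Capitals mark the GC box GGGCGG and the TATA box TATAAA on either strand. The Sdc3 window is chr4:130792387-130792536 on the plus strand, that of Gpc3 is chrX:52613975-52614124 on the minus strand, that of Hs6st1 is chr1:36068250-36068399 on the plus strand and that of Hs6st2 is chrX:51681603-51681752 on the minus strand.
Sdc3: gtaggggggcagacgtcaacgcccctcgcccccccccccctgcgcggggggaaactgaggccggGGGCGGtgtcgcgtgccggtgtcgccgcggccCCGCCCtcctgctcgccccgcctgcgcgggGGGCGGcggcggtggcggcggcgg
Gpc3: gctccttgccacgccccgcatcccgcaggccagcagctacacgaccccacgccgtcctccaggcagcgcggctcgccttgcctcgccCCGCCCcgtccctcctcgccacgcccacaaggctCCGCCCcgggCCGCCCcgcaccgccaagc
Hs6st1: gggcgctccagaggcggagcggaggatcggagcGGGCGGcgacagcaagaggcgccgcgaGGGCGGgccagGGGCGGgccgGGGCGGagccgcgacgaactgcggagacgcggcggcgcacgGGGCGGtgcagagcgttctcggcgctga
Hs6st2: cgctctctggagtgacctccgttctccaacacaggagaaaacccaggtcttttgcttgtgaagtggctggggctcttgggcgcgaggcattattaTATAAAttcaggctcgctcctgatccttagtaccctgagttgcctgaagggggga

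The Hs6st1 window held 5 GC boxes and no TATA box, with 79.3% G and C. The Hs6st2 window held 0 GC boxes and 1 TATA box, with 53.3% G and C. The table holds another Hs6st2 start, not printed, which had 0 GC boxes, 0 TATA boxes and 72% G and C over the 250 bases before it. Over 250 bases the printed Hs6st2 start had 50% G and C. The windows of Sdc3 and Gpc3 held 3 GC boxes each. Over the 250 bases before the start, 21 of 33 member promoters held a GC box, against 32.7% of all 32851 promoters in the table. The same windows held a TATA box in 3 of 33 member promoters, against 12.4% of all. The ETS site CCGGAAG, searched because Etv4 and Etv5 are ETS factors, was found in 2 of 33, against 6.91% of all. A match is a description of letters in these windows.

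Across the series, 55.3 to 65.9% of probes were well above background on an array and 0 spots were saturated. A level below is log2 of the processed signal minus the 75th percentile of that array, so a difference of 1 is a 2-fold difference, and levels are compared between arrays for 1 probe and never between probes. The spermatogonial genes Ddx4, Dazl and Zbtb16 were well above background on all 10 arrays, which does not mean that spermatogonial genes had equal levels in both materials. In culture, 5 of 5 genes known to follow FGF signalling (Etv4, Etv5, Dusp6, Spry4, Bcl6b) were higher on both FGF5 arrays than on both others, by 2.52 to 4.59 on the log2 scale, and 0 of 5 passed the test across all probes. Fgf5 itself was well above background on 0 of 3 WT arrays and on 1 of 3 arrays labelled Fgf5-/- (replicate 1, at -3.42), so its probe gave no check of genotype. The probe is on chromosome 5 of mm9, bases 98705980 to 98706039, and whether the go-moja allele removes it is not stated in the sources used here. On the array labelled Fgf5-/- replicate 1, the level was the lowest of the 6 sorted arrays for 37.5% of all tested probes. The FGF5 and no FGF5 arrays lay on another slide than the sorted ones. Nothing states that samples of a group came from separate mice, beyond the design text that speaks of independent experiments, so p-values measure the spread between these samples.

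Most members were expressed in both materials. Of the 38, 30 were well above background on every array and 2, Hs3st3b1 and Hs6st3, on none. Gpc6 was well above background on 2 of 4 cultured arrays and on 0 of 6 sorted ones, and its level ran from -5.16 to -4.02 in culture and from -7.48 to -5.51 in sorted cells. Ndst3 was detected on 1 of 4 cultured and 4 of 6 sorted arrays, Ndst4 on 2 of 4 and 6 of 6, Hs3st3a1 on 4 of 4 and 1 of 6, Hpse on 3 of 4 and 6 of 6, and Xylt1 on 4 of 4 and 5 of 6. In these bulk samples, fewer cells of a type and less RNA per cell cannot be told apart.

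**Figure D1:**
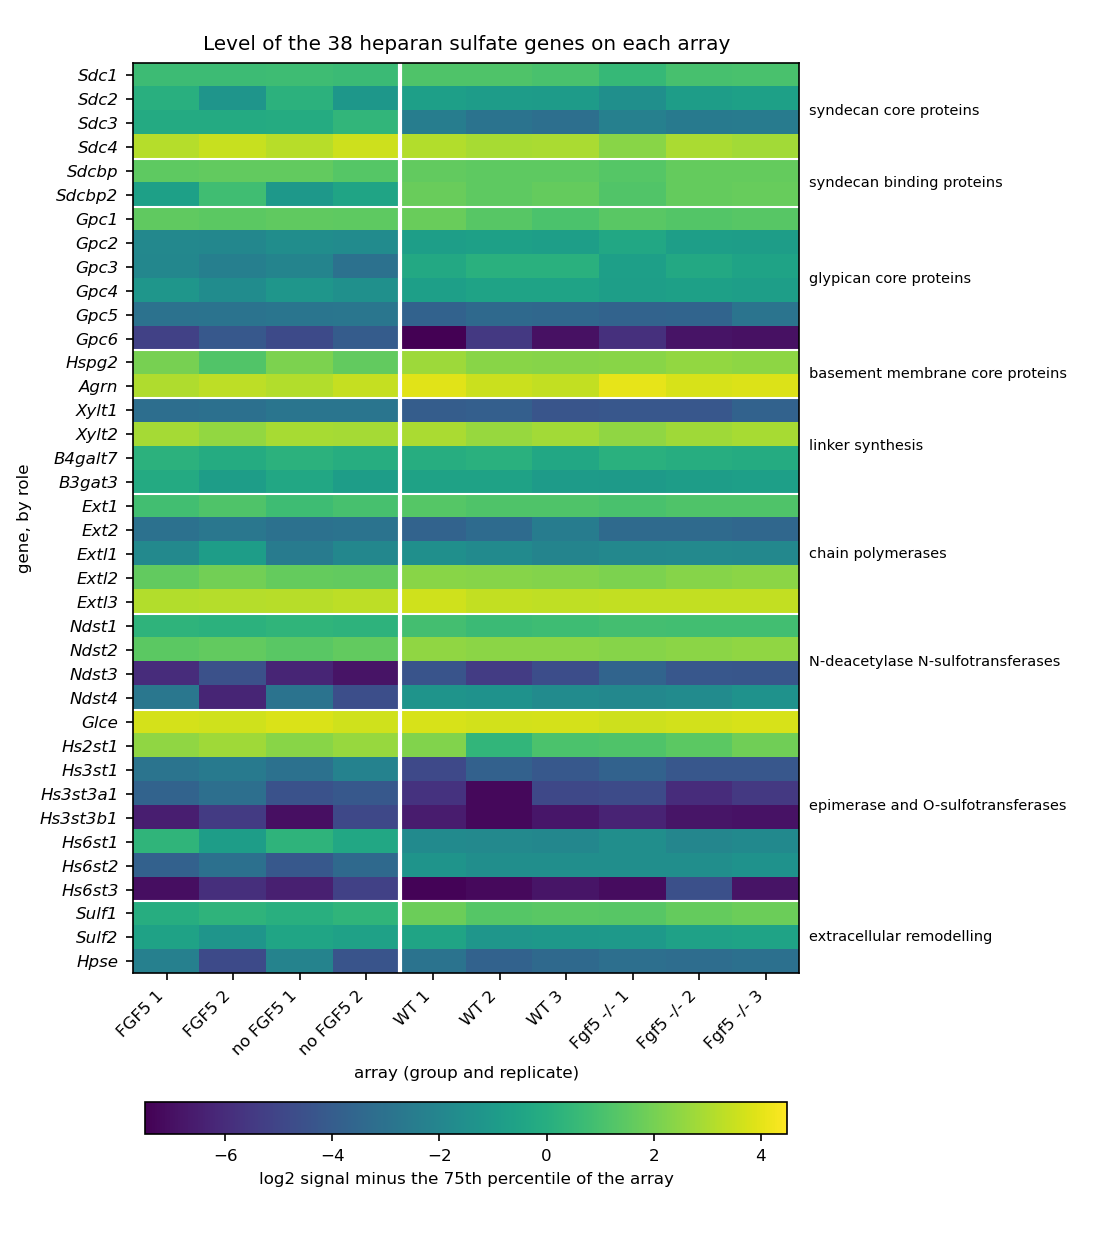
Level of each of the 38 members (rows, ordered by role) on each of the 10 arrays (columns), as log2 signal minus the 75th percentile of the array, shown by colour. The 4 cultured arrays are left of the white line and the 6 sorted arrays right of it, and Sdc3, Sdcbp2, Gpc3, Hs6st1, Hs6st2, Ndst4 and Sulf1 change colour across that line while Glce, Xylt2 and Sdcbp keep theirs. Colours are for reading along a row, since probes are not compared with each other.

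The largest differences in this gene set lay between cultured and sorted cells. Of 35 members tested in limma with Benjamini-Hochberg adjustment over 35823 probes, 8 were called higher and 14 lower in culture, and 8 and 10 with the probes of each gene averaged. Over all probes tested, 41.9% were called higher and 25.7% lower. The median difference was -0.05 over the members and 0.26 over all probes, on the log2 scale, and 25 of 35 members lay below the median of all probes. Slide, scan, strain, culture and cell purity cannot be told apart here.

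The transmembrane core proteins differed most through Sdc3. Its levels were -0.14 and -0.17 with FGF5, -0.10 and 0.41 without, -2.39, -2.92 and -3.12 in WT and -2.29, -2.58 and -2.52 in Fgf5-/- cells. Every cultured array was above every sorted one. The difference was 2.63 (SE 0.17) on the log2 scale, 6.21-fold, with a limma adjusted p of 7.91e-06, and it kept its sign and its call under all 19 alternatives run, between 2.12 and 2.96.

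Sdc4, a syndecan that binds FGFs at the cell surface, was also higher in culture. Its probe is on chromosome 2 of mm9, bases 164251211 to 164251270 on the minus strand. It stood at 3.19 and 3.48 with FGF5, 3.20 and 3.60 without, 3.13, 2.95 and 2.98 in WT and 2.38, 2.97 and 2.85 in Fgf5-/- cells. The lowest cultured value lay just above the highest sorted one, and the mean difference was 0.49 (SE 0.15, limma adjusted p = 0.0195). The median of all tested probes was 0.26 in the same comparison. Measured from that median, the Sdc4 difference was 0.23, with an interval from -0.12 to 0.57. The Sdc4 difference was therefore not separated from the shift of all probes. The call was lost without FGF5 replicate 2 (adjusted p = 0.0706), without no FGF5 replicate 2 (adjusted p = 0.0773) and with no FGF5 set against WT alone (adjusted p = 0.113). Sdc1 did not pass the threshold (-0.28, SE 0.12, limma adjusted p = 0.07), nor did Sdc2 (0.38, SE 0.34, adjusted p = 0.341). Measured from the median of all tested probes, the Sdc1 difference was -0.54, with an interval from -0.83 to -0.26.

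The 2 syndecan binding proteins, PDZ proteins that bind the tails of syndecans, differed from each other. Sdcbp (syntenin-1) was at 1.504 and 1.608 with FGF5, 1.61 and 1.32 without, 1.63, 1.51 and 1.54 in WT and 1.32, 1.65 and 1.68 in Fgf5-/- cells. The groups overlapped throughout, and the interval of the cultured minus sorted difference ran from -0.31 to 0.22. Measured from the median of all tested probes, the Sdcbp difference was -0.30, with an interval from -0.565 to -0.043. Sdcbp2 (syntenin-2) was at -0.67 and 0.81 with FGF5, -1.09 and -0.48 without, 1.77, 1.52 and 1.66 in WT and 1.26, 1.68 and 1.70 in Fgf5-/- cells. It was lower on every cultured array, by a log2 difference of -1.96 (SE 0.28, 3.88-fold, limma adjusted p = 0.000362). The other Sdcbp probes gave 0.33 and 0.51 for the same difference and neither passed, whereas the mean of its 3 probes gave 0.27 and did (adjusted p = 0.041).

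Among the glypicans, which are held to the membrane by a lipid anchor, 3 of 5 tested were called lower in culture and 1 higher by their brightest probe, and the calls of Gpc4 and Gpc5 were lost with probes averaged. The background over all tested probes was 25.7% called lower and 41.9% higher. Gpc3, a glypican that binds growth factors and morphogens, was at -1.94 and -2.34 with FGF5, -2.08 and -3.04 without, -0.28, 0.11 and 0.13 in WT and -0.72, -0.27 and -0.52 in Fgf5-/- cells. No cultured array reached the sorted range, and the difference was -2.09 (SE 0.21, 4.26-fold, limma adjusted p = 5.67e-05), or -0.99 with its probes averaged (adjusted p = 0.000833). Gpc2 followed at -1.104 (SE 0.13, adjusted p = 0.000111) and Gpc4 at -0.71 (SE 0.12, adjusted p = 0.00101). Gpc5 was higher in culture by 0.60 (SE 0.17, adjusted p = 0.0138), with arrays that overlapped, and Gpc1 did not pass (0.15, adjusted p = 0.323). Measured from the median of all tested probes, the Gpc5 difference was 0.34, with an interval from -0.05 to 0.74. It was therefore not separated from the shift of all probes.

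Both core proteins of basement membranes were lower in culture by their brightest probe, perlecan (Hspg2) by a log2 difference of -0.70 (limma adjusted p = 0.0101) and agrin (Agrn) by -0.54 (adjusted p = 0.00954). Their dimmer probes went the other way, at 0.48 for Hspg2 and 0.70 for Agrn, each with an adjusted p under the threshold (0.0479 and 0.0122). No direction of the gene can therefore be given for either. Gpc4 shared this pattern, with a dim probe at 0.68 that was well above background on 5 of 10 arrays, and so did Ndst1, with one of its 3 probes at 1.17 (adjusted p = 4.52e-05) and the brightest at -0.55. The call of Gpc4, Gpc5, Hspg2, Agrn and Ndst1 was lost when the probes of each gene were averaged.

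Of the 4 linker enzymes 1 was called higher in culture, and of the 5 genes of the exostosin family 2, Extl2 and Extl3, were called lower. The background over all tested probes was 41.9% called higher and 25.7% lower. Xylt1, one of the xylosyltransferases that start the chain, was higher in culture by 1.08 (SE 0.15, 2.12-fold, limma adjusted p = 0.000275), and its partner Xylt2 was at 0.04 (95% interval -0.25 to 0.32). B4galt7 and B3gat3, which add the next sugars of the linker, did not pass, at 0.11 and 0.25. Within the exostosin family, Ext1 (-0.23), Ext2 (0.34) and Extl1 (0.05) did not pass, and Extl2 was lower by -0.59 (SE 0.11, adjusted p = 0.00127). Measured from the median of all tested probes, the Ext1 difference was -0.49, with an interval from -0.75 to -0.24. Extl3 was lower by -0.24 with an adjusted p of 0.0459, a call that held in 7 of 19 alternatives.

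All 4 N-deacetylase N-sulfotransferases, which exchange acetyl groups for sulfate and so open the chain to the later enzymes, were called lower in culture by their brightest probe. The background over all tested probes was 25.7% called lower. Ndst2 differed by -0.91 (SE 0.10, 1.88-fold, limma adjusted p = 7.65e-05), and Ndst1 stood at -0.55 (adjusted p = 0.000916) with the disagreement of probes given above. Ndst4 was at -2.74 and -6.27 with FGF5, -2.91 and -4.60 without, -1.27, -1.38 and -1.70 in WT and -1.89, -1.73 and -1.37 in Fgf5-/- cells. It was detected on both cultured arrays of replicate number 1 and on neither of number 2, and its fitted difference of -2.57 (SE 0.63, adjusted p = 0.0065) rests in part on values at background. It was -1.69 without FGF5 replicate 2 and -1.27 after normexp background correction, both past the threshold. Ndst3 was at -5.98 and -4.53 with FGF5, -6.27 and -6.85 without, -4.40, -5.38 and -4.65 in WT and -3.63, -4.25 and -4.27 in Fgf5-/- cells. These are values near background, the arrays overlapped, and the difference of -1.48 (SE 0.33, adjusted p = 0.0038) came to -0.06 after normexp (adjusted p = 0.573).

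The later sulfotransferases moved apart. Hs6st1, a 6-O-sulfotransferase, was at 0.34 and -0.84 with FGF5, 0.28 and -0.29 without, -1.75, -1.87 and -1.95 in WT and -1.57, -1.98 and -1.80 in Fgf5-/- cells. Its difference was 1.69 (SE 0.23, 3.24-fold higher in culture, limma adjusted p = 0.000306). Hs6st2, which carries out the same reaction, was at -3.77 and -3.09 with FGF5, -4.20 and -3.40 without, -1.30, -1.58 and -1.57 in WT and -1.57, -1.55 and -1.38 in Fgf5-/- cells, and its difference was -2.12 (SE 0.19, 4.35-fold lower, adjusted p = 3.67e-05), or -1.19 after normexp. For both genes, cultured and sorted arrays did not overlap, and the 2 calls held under all 19 alternatives.

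Hs2st1, which places sulfate on the uronic acid, was at 2.53 and 2.78 with FGF5, 2.39 and 2.63 without, 2.24, 0.38 and 1.09 in WT and 1.20, 1.49 and 1.91 in Fgf5-/- cells. The sorted values were widely spread, with WT replicates 1 and 2 at their ends, and the difference was 1.20 (SE 0.33, 2.3-fold, limma adjusted p = 0.0113). Hs3st1, a 3-O-sulfotransferase, was at -2.88 and -2.60 with FGF5, -3.04 and -2.20 without, -4.83, -3.77 and -4.19 in WT and -3.71, -4.24 and -4.25 in Fgf5-/- cells, with a difference of 1.49 (SE 0.25, adjusted p = 0.000944). Hs3st3a1, another 3-O-sulfotransferase, was at -3.69 and -3.10 with FGF5, -4.49 and -4.19 without, -5.73, -7.25 and -4.92 in WT and -4.77, -5.98 and -5.49 in Fgf5-/- cells. All 3 genes were higher on every cultured array than on any sorted one. For Hs3st3a1, detected on 1 of 6 sorted arrays, the fitted difference was 1.82 (SE 0.44, adjusted p = 0.00592), and 0.79 after normexp. That of Hs3st1 was 0.86 after normexp, and both still passed. The calls of Hs2st1 and Hs3st3a1 were lost with no FGF5 set against WT alone (adjusted p = 0.104 and 0.0997). The epimerase Glce differed by -0.01, with an interval from -0.21 to 0.20, the narrowest of the 35. Measured from the median of all tested probes, the Glce difference was -0.27, with an interval from -0.47 to -0.06.

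Outside the cell, Sulf1, a sulfatase that removes 6-O-sulfate from finished chains, was lower in culture by -1.40 (SE 0.15, 2.64-fold, limma adjusted p = 7.85e-05), and its second probe gave -1.45. The other sulfatase, Sulf2, did not pass (0.10, interval -0.36 to 0.56). Hpse, the heparanase that cleaves the chain, did not pass either, with an interval from -1.421 to 1.097.

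**Figure D2:**
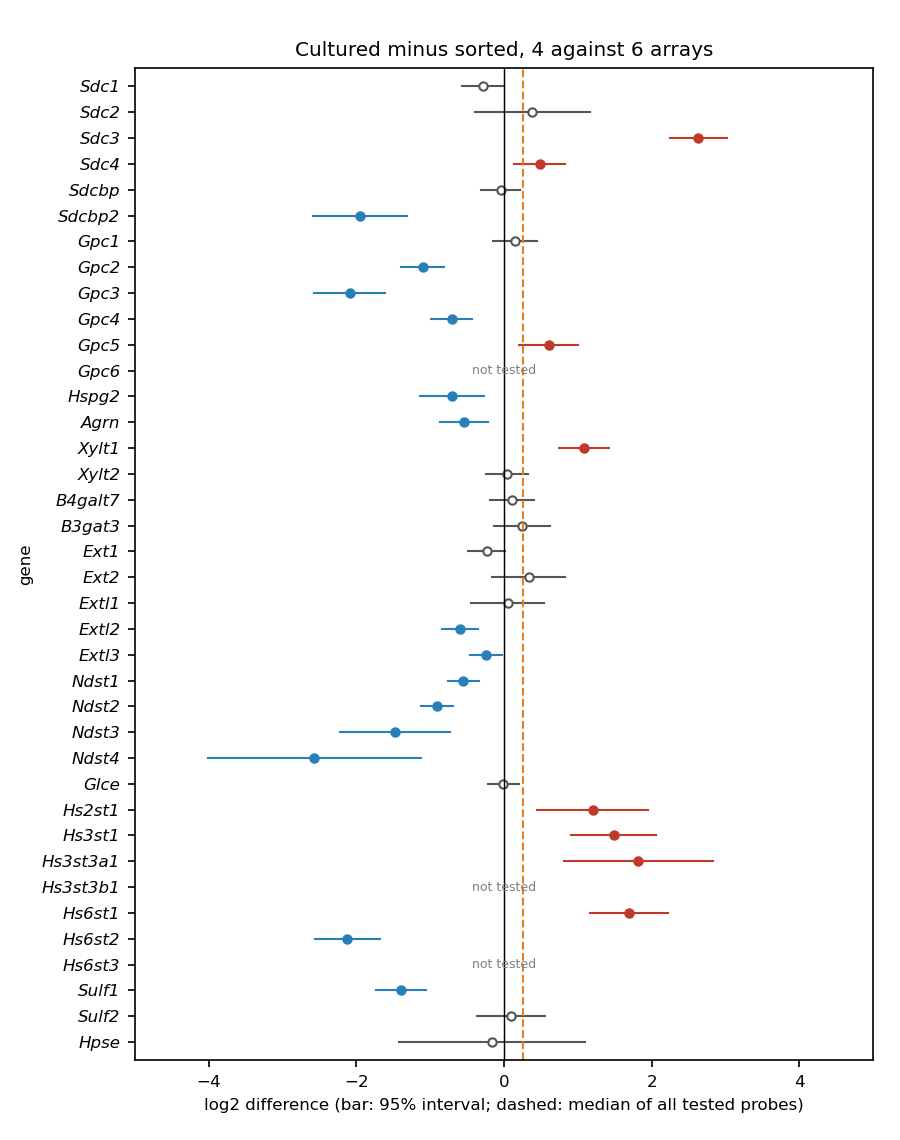
Difference between the mean of both cultured groups and the mean of both sorted groups for each member, on the log2 scale, with its 95% interval. Filled points passed an adjusted p of 0.05 (8 higher in red, 14 lower in blue), open points did not, the dashed line is the median of all tested probes at 0.26, and Sdc3 and Ndst4 lie farthest out.

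**Figure D3:**
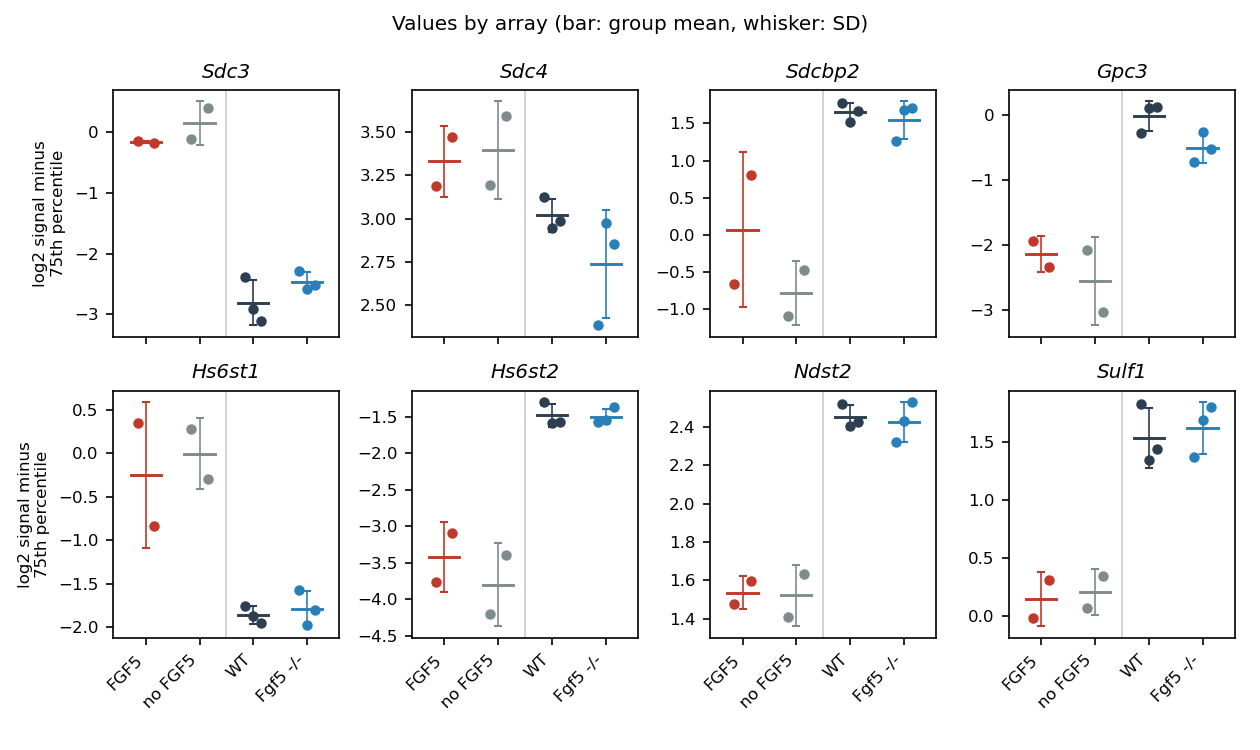
Level of 8 members on each array (points), as log2 signal minus the 75th percentile, with the group mean (bar) and SD (whisker) for FGF5 (n = 2), no FGF5 (n = 2), WT (n = 3) and Fgf5-/- (n = 3). Cultured and sorted arrays, on either side of the grey line, do not overlap for any of the 8, and only Sdc3, Sdc4 and Hs6st1 are higher in culture.

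Genes of the same pathway outside the member list were spread to both sides. Of 55 tested in 6 lists, 21 were called higher and 15 lower in culture, close to the background of 41.9% and 25.7% of all tested probes. Among other proteins that can carry heparan sulfate, Srgn (serglycin) was at -2.39 and Col18a1 at -1.93, while Tgfbr3 was at 0.80. Papss2, one of the enzymes that make the sulfate donor, was higher at 1.73 and Papss1, the other, was lower at -0.49. Among enzymes of the chondroitin and dermatan sulfate branch, which competes for the same linker, 7 of 14 were called higher and 4 lower, against the same background.

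Markers of other cells differed between the materials too. The summed signal of 10 fibroblast genes, relative to the 75th percentile, was 14.4 to 26.6 in culture and 7.66 to 9.16 in sorted cells, with 5 of 9 tested called higher in culture and 2 lower. That of 4 genes of differentiating spermatogonia was 11.7 to 16.0 in culture and 62.9 to 80.2 in sorted cells, that of 5 spermatid genes 0.837 to 1.03 and 4.52 to 16.0, and that of 8 Sertoli cell genes 2.32 to 2.98 and 6.44 to 10.9. Of the tested genes in these 3 lists, 2 of 4, 4 of 4 and 5 of 7 were called lower in culture, and 1 Sertoli cell gene was called higher. For every such count in this paragraph, the background over all tested probes was 25.7% called lower and 41.9% called higher. A sum is weighted toward the brightest probes. The gap for differentiating spermatogonia was carried mostly by Stra8, at 2.57 to 3.28 in culture and 5.76 to 6.14 in sorted cells. Kit was lower in culture too, whereas Sohlh2 was at 2.34 to 2.47 and 1.96 to 2.43. The sums for endothelium (11.5 to 20.8 and 2.75 to 4.98) and Leydig cells (4.99 to 6.65 and 0.424 to 1.96) were higher in culture, but the endothelial genes went both ways, with 3 called higher and 2 (Cdh5 and Tek) called lower of 5 tested. Both Leydig cell genes tested were called higher, and Cyp17a1, at 2.28 to 2.70 against -1.64 to 0.88, made up most of their sum. Of 5 macrophage genes tested, 4 were called higher in culture and 1 lower. Of 4 peritubular myoid genes tested, 3 were called higher and 1 lower. Of 5 spermatocyte genes, 1 was called higher and 3 lower. Spermatogonial genes differed as well. Of 10 genes of undifferentiated spermatogonia, 6 were called lower in culture and 1 higher (background 25.7% and 41.9% of probes). Gfra1 ran from -4.07 to -0.52 in culture and from 0.58 to 0.89 in sorted cells. Amh (Sertoli cells), Cyp11a1 and Lhcgr (Leydig cells), Acrv1 (spermatids) and Emcn (endothelium) were well above background on 0 of 10 arrays. The part of these cells in the differences above was not tested.

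Addition of FGF5 to the cultured cells gave no called change in any member. Of 33 members tested among 34608 probes, 0 were called higher or lower in limma, as for the probes at large (0 of 34608). At an unadjusted p under 0.05 there was 1 member by its brightest probe, Hs3st3a1, and there were 882 probes (2.55%). A dimmer probe of Hs6st1, well above background on 4 of 10 arrays, was at -0.66 (SE 0.17) and was not called. The brightest Hs6st1 probe was at -0.245 (SE 0.459). The median difference was -0.06 over the members and -0.03 over all probes. Members whose FGF5 arrays did not overlap the others numbered 2 on the higher side (background 8.18% of probes) and 6 on the lower side (background 14.5%). Gpc6, Ndst3, Ndst4, Hs3st3b1 and Hs6st3 were not tested, since neither group had them well above background on both of its arrays.

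The 3 members with the largest differences were enzymes and a binding protein. Hs3st3a1 was higher on both FGF5 arrays, at -3.69 and -3.10 against -4.49 and -4.19, a difference of 0.94 (SE 0.27, unadjusted p = 0.0192, limma adjusted p = 1), or 0.39 after normexp background correction. Extl1, of the exostosin family, was higher on both as well, at -1.83 and -0.84 against -2.52 and -1.93, a difference of 0.89 (SE 0.41, 95% interval -0.19 to 1.97), which was 0.39 without FGF5 replicate 2 and 1.39 without FGF5 replicate 1. Sdcbp2 overlapped, at -0.67 and 0.81 against -1.09 and -0.48, with a difference of 0.86 (SE 0.55). For Sdcbp2 the difference without FGF5 replicate 2 was 0.12 and without FGF5 replicate 1 it was 1.59. Those 2 values also carry the difference between replicate numbers described below. Between arrays of equal number, FGF5 was higher both times, at -0.67 against -1.09 and at 0.81 against -0.48. With the replicate number as a block the SE was 0.24 (limma adjusted p = 0.661). Gpc3 followed at 0.42 (SE 0.38) and Hs6st2 at 0.37 (SE 0.38), both with overlapping arrays. For both, FGF5 was likewise higher in each pair of equal number. With the block the SE was 0.18 for Gpc3 and 0.12 for Hs6st2 (limma adjusted p = 0.72 and 0.682).

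The members that the study stained did not differ beyond the spread between arrays. For Sdc4 the FGF5 arrays stood at 3.19 and 3.48 and the others at 3.20 and 3.60, and the difference was -0.07 with a 95% interval from -0.65 to 0.52. For Sdcbp the arrays stood at 1.504 and 1.608 against 1.61 and 1.32, with an interval from -0.39 to 0.58. With 2 arrays a group, the comparison called no probe, the FGF response genes included. Sdc3, Gpc2, Gpc5, Xylt1, Xylt2 and Extl3 were lower on both FGF5 arrays, by differences of -0.31 to -0.12, and none had an unadjusted p under 0.05.

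Cultured arrays of equal replicate number resembled each other more in these genes than arrays of equal condition. Sdc2 was at 0.08 (FGF5) and 0.20 (no FGF5) on the arrays of number 1 and at -1.26 and -1.16 on those of number 2. Hpse was at -2.28 and -2.15 on number 1 and at -4.79 and -4.39 on number 2. In 30 of 33 tested members, replicate 1 differed from replicate 2 in the same direction in both conditions, against 69.7% of all tested probes. In 25 of 33 the mean of these differences was larger in size than the difference between conditions, against 67.7% of all probes. Hspg2, B3gat3 and Hs6st1 were also higher on number 1, and Sdcbp2, Extl1 and Hs6st2 on number 2. Of 10 fibroblast genes, 4 (Col1a1, Pdgfra, Thy1 and Fbln1) were higher on number 1 in both conditions, 4 (Col1a2, Col3a1, Dcn and Pdgfrb) were lower in both, and 2 went both ways. Their summed signal was 23.9 and 26.6 on number 1 against 14.4 and 16.0 on number 2, a gap carried mostly by Col1a1, at 3.49 and 3.71 against 1.57 and 2.02. The part of these cells in the members' differences was not tested, and the labels do not say that a number marks a shared experiment.

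**Figure D4:**
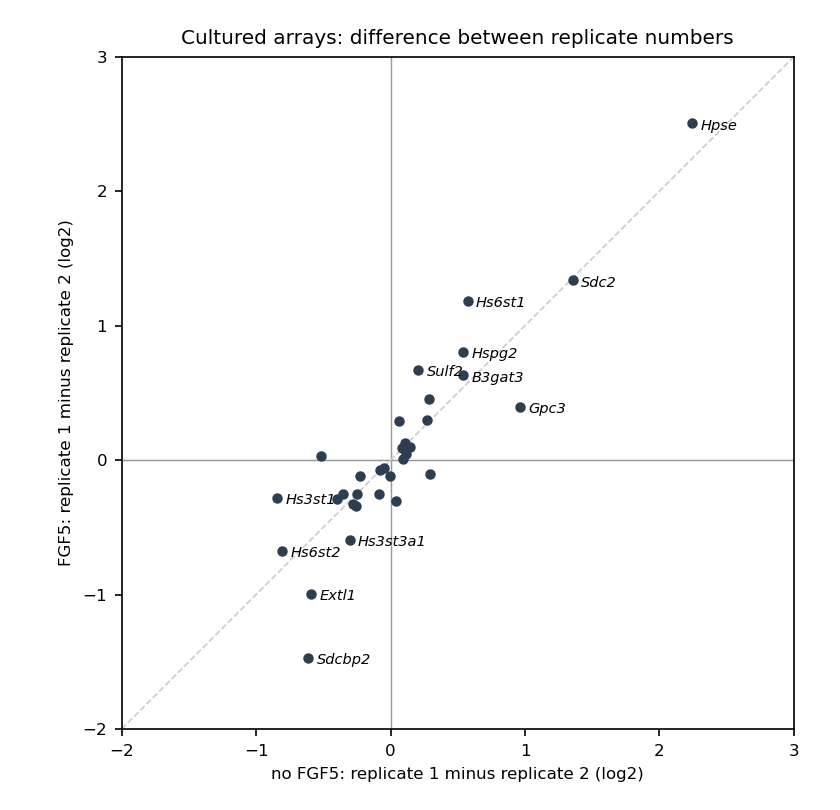
Difference between replicate 1 and replicate 2 for each of the 33 members tested in culture, without FGF5 (x axis) and with FGF5 (y axis), in log2 units, with the dashed line marking equal values. Points to the lower left and the upper right of the origin, 30 of 33, differ in the same direction in both conditions, and Hpse and Sdc2 lie farthest to the upper right.

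Loss of Fgf5 gave no called change in any member either. Of 34 members tested among 30283 probes, 0 were called in limma, again as for the probes at large (0 of 30283). At an unadjusted p under 0.05 there were 2 members, Ndst3 and Gpc3, and there were 2055 probes (6.79%). The median difference was -0.02 over the members and -0.03 over all probes. The groups did not overlap for 1 member on the higher side, Ndst3 (background 7.01%), and for 1 on the lower side, Ext1 (background 9.2%). Gpc6, Hs3st3a1, Hs3st3b1 and Hs6st3 were not tested.

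Ndst3 was well above background on 3 of 3 Fgf5-/- arrays and on 1 of 3 WT arrays, at -3.63, -4.25 and -4.27 against -4.40, -5.38 and -4.65. The fitted difference was 0.76 (SE 0.30, unadjusted p = 0.0423, limma adjusted p = 0.728), and it was 0.47 without WT replicate 2 and 0.15 after normexp. Gpc3 was at -0.72, -0.27 and -0.52 in Fgf5-/- cells and at -0.28, 0.11 and 0.13 in WT cells, a difference of -0.49 (SE 0.17, unadjusted p = 0.0278, adjusted p = 0.728), or -0.20 with its probes averaged. The highest Fgf5-/- array and the lowest WT array of Gpc3 overlapped narrowly. Sdc3 was at 0.35 (SE 0.21), and at 0.13 after normexp, 0.56 without WT replicate 1 and 0.19 without WT replicate 3. Hs2st1 was at 0.30 (SE 0.47), and at 0.80 without WT replicate 1 and -0.13 without WT replicate 2. Arrays overlapped for both.

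Sdc4 was at 2.38, 2.97 and 2.85 in Fgf5-/- cells and at 3.13, 2.95 and 2.98 in WT cells, a difference of -0.28 (SE 0.17, limma adjusted p = 0.758). The low value was that of Fgf5-/- replicate 1, and without it the difference was -0.11 (SE 0.10). Sdc1, Sdc2, Sdcbp and Sdcbp2 were also lowest of the 6 sorted arrays on that replicate. Without it, Sdc1 came to -0.09 from -0.26, Sdc2 to 0.07 from -0.18 and Sdcbp to 0.11 from -0.01, and no member passed. On the same array the sum of 5 Leydig cell genes was 0.424, against 1.17 to 1.96 on the other sorted arrays, and that of 6 macrophage genes was 1.35, against 2.02 to 2.55. Within these lists Cyp17a1 was at -1.64, against 0.10 to 0.88, and Csf1r at -1.87, against -0.33 to 0.20. Star was highest of the 6 on this array, at -3.55, and Cd68 (-1.085) and C1qb (-2.47) were not lowest. Sums of other lists were lowest there too, as for Sertoli cells (6.44), endothelium (2.75), spermatids (4.52) and undifferentiated spermatogonia (183). Those of differentiating spermatogonia (73.5) and fibroblasts (8.7) were not. The array labelled Fgf5-/- replicate 1 was the lowest for 13 of 34 members, which is 38.2%, close to the 37.5% of all tested probes given above. The part of these cells in the syndecan values was not tested.

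**Figure D5:**
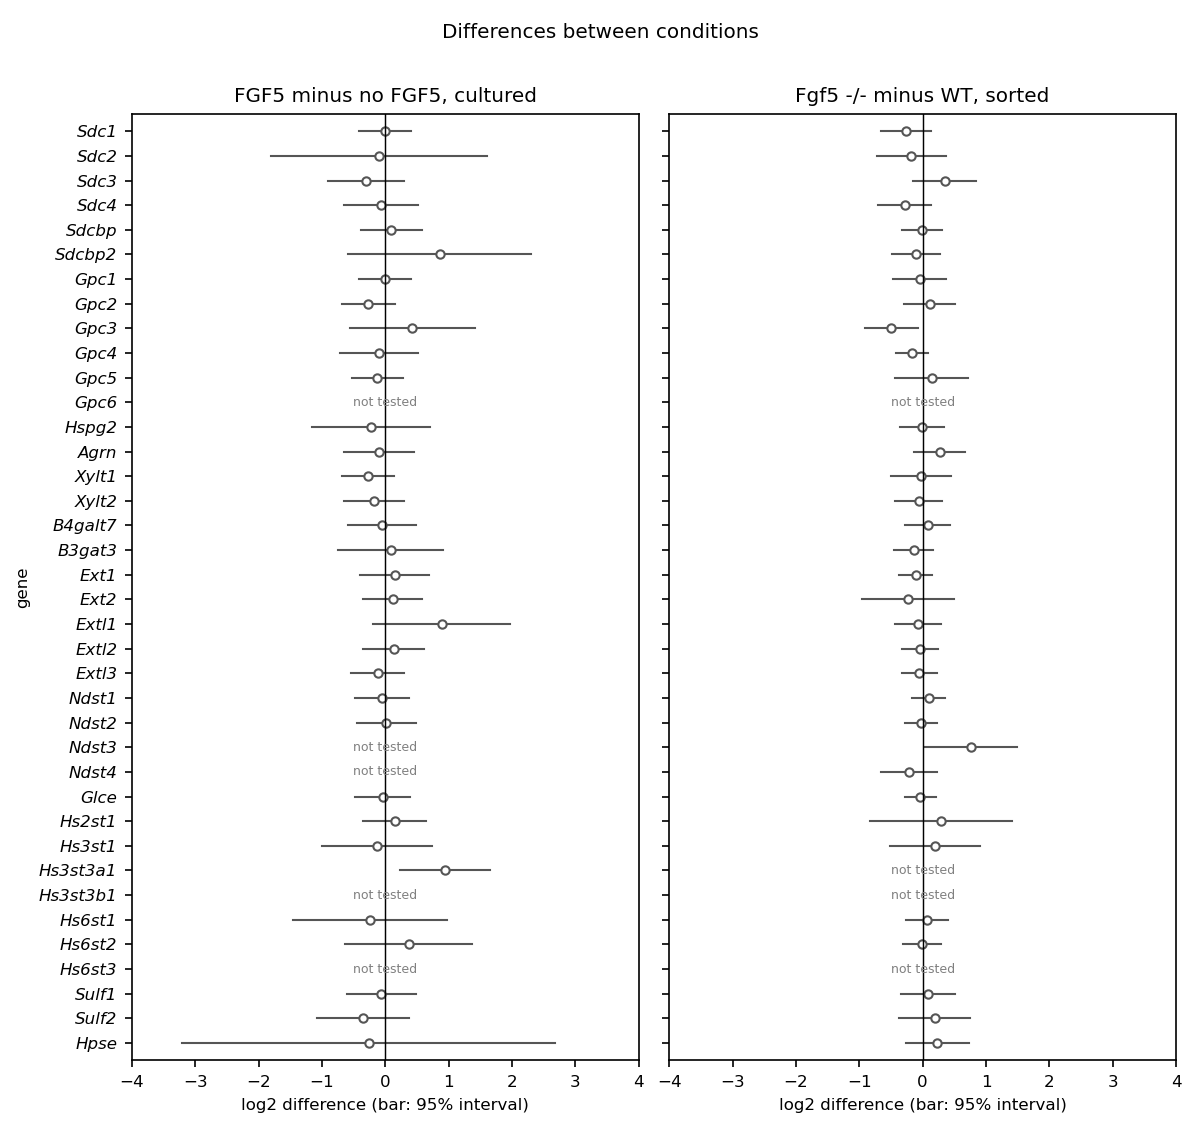
Difference for each member on the log2 scale, with its 95% interval, for FGF5 minus no FGF5 in cultured cells (left, 2 against 2 arrays) and Fgf5-/- minus WT in sorted cells (right, 3 against 3 arrays). All points are open because 0 of 33 and 0 of 34 members passed an adjusted p of 0.05, and members without a point were not tested.

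Genes of the pathway outside the member list gave 0 calls in both comparisons of conditions. In culture, 55 were tested with a median of 0.00, and 4 were higher and 5 lower on every FGF5 array (background 8.18% and 14.5%). In sorted cells, 52 were tested with a median of -0.03, and 1 was higher and 4 were lower on every Fgf5-/- array (background 7.01% and 9.2%). The 5 FGF receptor genes ran from -0.13 to 0.03 with FGF5 and from -0.12 to -0.01 without Fgf5.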

How the data were processed

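The authors hybridised Cy3-labelled RNA of 10 samples to 10 one-colour arrays and deposited scanner files of spot intensity, made with Feature Extraction (10.7.1.1 in the file headers, 10.7.3.1 in the submitters' processing notes). They also deposited processed values, which equal log2 of the scanner signal minus a constant for each array. Probe positions are on mm9. Samples were grouped by their labels.

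Processed signals below 1 were set to 1, log2 was taken and each array was centred on the 75th percentile of its non-control spots. Spots marked as outliers were left out and spots of a probe were averaged. Files of sorted samples carry no gene names, which were joined by probe from those of the cultured samples. A probe was tested where all arrays of 1 or more of the groups compared had it well above background, with limma 3.58.1 in R 4.3.3, two-sided, with Benjamini-Hochberg adjustment over all tested probes and a threshold of 0.05. Precision is limited by how few arrays there are. The steps were tested on simulated data with independent noise on each array. Those data held no shared replicate difference and no deviating array, so the fit was not tested under either.

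Values on every array are given for Sdc4 and Sdcbp, for the 5 members with the largest change in each comparison of conditions, and for the 5 members most higher and the 5 most lower in cultured cells among those called. Members and lists were chosen with earlier results of these data known. Alternatives were other scalings (quantile, normexp with an offset of 50, the authors' table, a percentile over detected probes), other filters, an intensity trend, the replicate number as a block, averaging over the probes of a gene, no FGF5 against WT alone, and each replicate left out.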

Additional observations from a re-analysis of the deposited data

How the results depend on the processing

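In both comparisons of conditions, 0 probes were called in limma under every alternative run. With the replicate number as a block, the smallest limma adjusted p was 0.196 in culture and 0.885 in sorted cells, 0 members were called, and members with an unadjusted p under 0.05 went from 1 to 4 in culture. Deviations of equal-numbered arrays correlated at 0.636 in culture, with 2 pairs only, and at -0.42, -0.157 and -0.148 in sorted cells, so the numbers were not taken as pairs. Between cultured and sorted cells, 24241 of 35823 probes were called, and 17967 to 25578 under the alternatives that test probes. With the probes of a gene averaged, 16286 of 24724 genes were called. The median of all probes, 0.26, was 0.14 after quantile normalization and 0.39 with the percentile over detected probes. Members called higher numbered 8, and 5 with no FGF5 set against WT alone, which uses fewer arrays. Leaving out 1 array at a time gave 7 to 9 higher and 13 to 15 lower. Sdc3, Sdcbp2, Gpc2, Gpc3, Extl2, Ndst2, Hs3st1, Hs6st1, Hs6st2 and Sulf1 kept sign and call under all 19 alternatives.

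Sdcbp changed sign in sorted cells after quantile normalization (0.037), normexp (0.039) and the percentile over detected probes (0.05), and between cultured and sorted cells under the same settings (0.059, 0.024 and 0.089) and with the mean of its probes (0.27). With 1 array left out at a time, differences in culture ran from -0.27 to 0.14 for Sdc4, -0.052 to 0.239 for Sdcbp, -0.06 to 0.90 for Gpc3 and -0.034 to 0.775 for Hs6st2. In sorted cells they ran from -0.072 to 0.110 for Sdcbp and -0.13 to 0.80 for Hs2st1, and between cultured and sorted cells from -0.118 to 0.028 for Sdcbp. In culture this leaves a group with 1 array, assumed to vary like the others. The causes were not tested.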
